A study of Equus caballus with 6 samples.

Results

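The acrosome and sperm-egg interaction genes examined here are 39 genes whose products build the acrosome of the sperm head or act on it when sperm meet the egg. They were chosen by name, and every array spot whose platform annotation gives exactly 1 of these symbols was taken as a member probe. This found 39 probes of 37 genes, among 53423 gene probes of which 23472 carry a single symbol and stand for 18278 genes. SPESP1 and DPY19L2 had no such probe, and 1 further probe shared by FBXL4 and GOPC was left out. The tissue was testicular parenchyma of 6 adult stallions, acclimated to the clinic for 10 days and then injected intravenously. The dexamethasone group, 3 stallions, received 0.1 mg/kg of this synthetic glucocorticoid, and the control group, 3 stallions, received saline in like volume. In both groups the testes were taken 12 h after the injection, and the labels give no exact ages and no strain. Each animal has 1 one-colour CodeLink array of human gene probes, on which the horse RNA was read across species.

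The acrosome is a flattened secretory vesicle that spermatids assemble from the Golgi apparatus and spread over the nucleus. It holds proteases, hyaluronidase and matrix proteins that are released when the sperm reaches the egg coat, and its membranes carry the proteins that later bind and fuse with the egg. Most of these genes are transcribed in haploid round spermatids, so that in testis tissue their RNA follows the germ cells rather than the hormone-producing Leydig cells. A fall in a tissue sample can come from fewer such cells or from less RNA in each, and bulk arrays cannot tell these apart.

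Detection is given by the deposited quality flag, which marks a spot as near background when its signal strength, the spot mean over the noise level of the spot, is below 1. Between 22690 and 25537 gene probes were above background per array (42.5% to 47.8%), gene probes had a median brightness of 73.0 to 80.2 with local backgrounds near 47 to 50, and the arrays correlated at 0.983 to 0.990 over 15 pairs, across probes, which are not independent replicates. Of the markers of the tissue, TNP2, ODF1, ODF2 and AKAP4 of spermatids, DMC1 and PIWIL1 of spermatocytes, AMH of Sertoli cells and INSL3 of Leydig cells were above background on 6 of 6 arrays. The probes of PRM2, TNP1 and PGK2, genes that define late germ cells, were above background on none. Nor were those of SYCE1 and HORMAD1 of spermatocytes, SOX9 of Sertoli cells and NR5A1 of Leydig cells. Over the full marker lists 9 of 26 spermatid, 4 of 20 spermatocyte, 5 of 21 Sertoli and 3 of 15 Leydig probes were above background on 0 arrays. The number of arrays limits the precision.

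Of the 39 member probes, 20 were above background on all 6 arrays, 5 on 4 or 5 arrays, 2 on 1 or 2 arrays and 12 on none. Per stallion, 23 to 25 member probes were above background in the dexamethasone group and 24 to 27 in the control group. A probe was tested when it was above background on at least 3 arrays with at least 2 values per group, which 25 probes of 24 members met. Of the member probes 64.1% were above background on at least 3 arrays, against 46.2% of all gene probes and 51.7% of those with a single symbol. Because the probes are human, a dim spot may hold a poorly matched probe as well as a rare transcript, and levels are not compared between probes. The match of the probes to horse transcripts was not examined. For a probe above background, too, the gene named rests on the annotation alone.

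**Figure D1:**
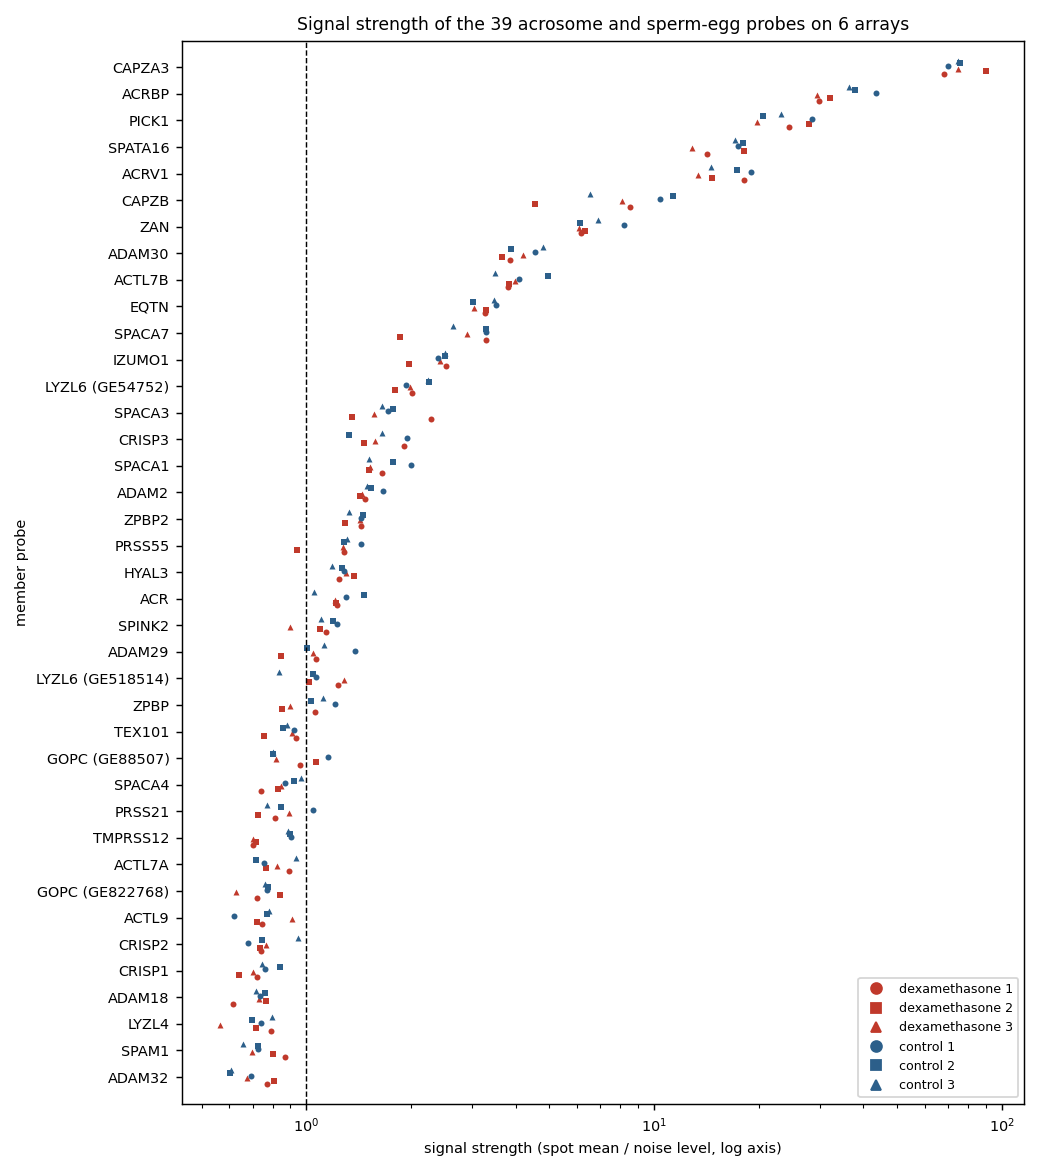
Signal strength (spot mean over noise level, log axis) of the 39 member probes, 1 point per stallion, with red for dexamethasone and blue for control. The dashed line is the limit of 1 below which the files mark a spot as near background, and the 12 probes never above it lie between 0.566 and 0.963.

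The members without a usable signal include several of the best known fertilization genes. SPAM1, the sperm surface hyaluronidase, ADAM18, ADAM32, CRISP1, CRISP2, SPACA4, TEX101, TMPRSS12, LYZL4, ACTL7A and ACTL9 were above background on none of the 6 arrays, as was 1 of the GOPC probes. Their signal strength ran from 0.566 to 0.963 and their log2 normalised intensity from 5.71 to 6.39, with no order to be read from values near background. CRISP1 is mainly an epididymal gene, whereas CRISP2 is a testicular one. The other GOPC probe was above background in dexamethasone stallion 2 and control stallion 1, and that of PRSS21, the protease testisin, only in control stallion 1. With the 3 dexamethasone values of PRSS21 not above background, the control mean was 6.24 and the measured dexamethasone mean 6.18, and no fold can be given.

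RefSeq's genes of the horse assembly TB-T2T include 36 of the 39 symbols, all 24 tested members among them, but not SPAM1, PRSS21 and ACTL9 by those symbols. In this assembly 3 pairs of paralogous members lie side by side with 0 coding genes between them, and in each pair 1 member was read and the other was not. CRISP3 was above background on 6 arrays and its neighbour CRISP2 on 0. ADAM2 was above background on 6 arrays and ADAM18 on 0, while ADAM32, with 1 coding gene between it and ADAM18, was on 0 too. ACTL7B was above background on 6 arrays and ACTL7A on 0.

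Setting the dexamethasone group against the control group asks whether a single glucocorticoid dose changed the testicular RNA of these genes 12 h later. No member passed the test. Values are log2 intensities after background correction and quantile normalisation, tested with limma and adjusted by Benjamini-Hochberg over all 24590 tested probes, of which 1, no member, passed an adjusted p of 0.05 (0.00407%). The members' limma adjusted p was 0.999 for each of the 25 probes. At an unadjusted p under 0.05 there were 2 member probes of 25 (8%), against 3.29% of all tested probes, 1.47% higher and 1.81% lower. The 2 were ZPBP, lower, and a probe of LYZL6, higher. Of the 25 probes 13 lay higher in the dexamethasone group and 12 lower, with a median log2 difference of 0.00 and a range from -0.21 to 0.24. Over all tested probes 47.5% lay higher, with a median of -0.01.

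The data also bound how large a change in the measured intensities could have been missed. The 95% intervals of all 25 differences lay within 1.5-fold in either direction, the widest being that of CAPZB at -0.47 to 0.38. Limma draws the variance of each probe toward that of all tested probes. An interval therefore does not rest on the spread of that probe alone, and is narrower than that spread would give for a variable probe such as CAPZB. The normalisation adds an offset that compresses differences near background, so these intervals bound the normalised intensity and not the transcript of a dim probe. With plain background subtraction 17 of the 25 intervals lay within 1.5-fold, all 17 among the 20 probes above background on 6 arrays. The count was also 17 with the deposited scaled intensity, 21 with an offset of 10 and 24 under median scaling. It was 23 without dexamethasone stallion 3 and 24 without control stallion 3. Within groups the SD over 3 stallions had a median of 0.11, from 0.03 to 0.33 over the 25 probes, and 17 of the 25 differences were smaller than their own SD. The SD was larger in the dexamethasone group for 13 probes and in the control group for 12.

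**Figure D2:**
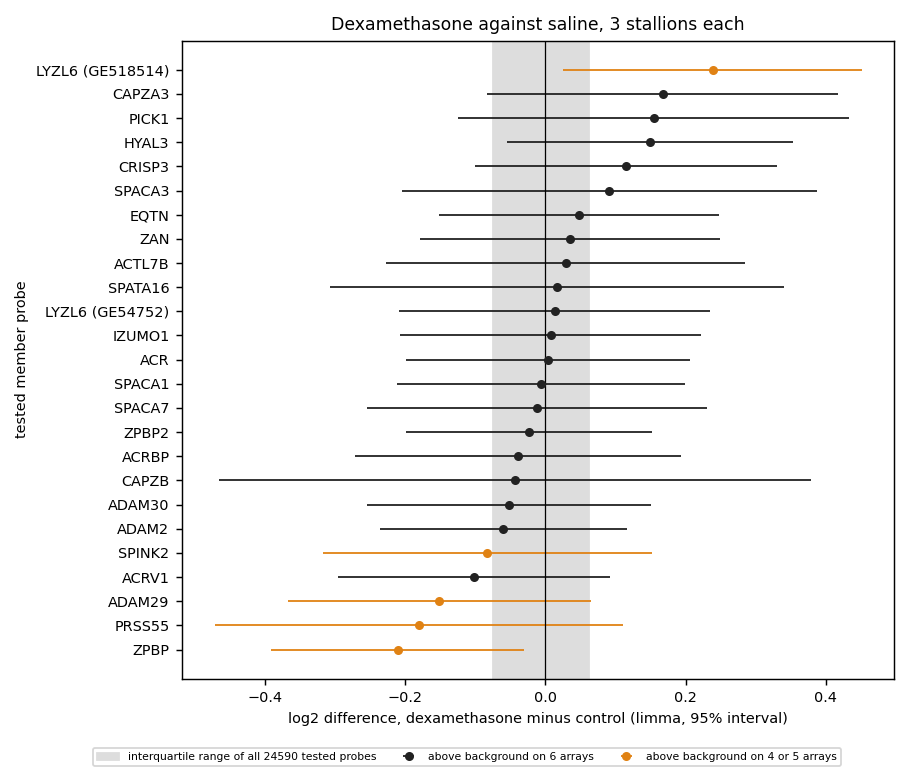
Log2 difference between dexamethasone and control stallions (3 each) for the 25 tested member probes, with limma's 95% interval, in order of size. The intervals of ZPBP and of 1 LYZL6 probe lie to one side of 0, both among the 5 probes drawn in orange that were above background on 4 or 5 arrays, and the grey band is the interquartile range of all tested probes, -0.07 to 0.06.

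Genes of the acrosomal matrix and its proteases made up 13 of the members, with 11 probes of 10 genes tested, 4 higher and 7 lower, and a median difference of -0.02. ACRV1, the acrosomal vesicle protein SP-10, was at 10.23, 10.27 and 10.23 in dexamethasone stallions 1 to 3 and at 10.42, 10.39 and 10.22 in control stallions 1 to 3. The dexamethasone values were nearly the same in each stallion and fell inside the control range. Its difference was -0.10 ± 0.09 (SE). ACRBP, which binds the inactive precursor of acrosin, was at 11.54, 11.62 and 11.36 against 11.68, 11.56 and 11.40, with the lowest value of each group in the third stallion and a difference of -0.04 ± 0.10.

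Acrosin itself, ACR, the main protease of the acrosome, was at 6.63, 6.66 and 6.72 in the dexamethasone stallions and 6.61, 6.80 and 6.58 in the controls. The treated values fell inside the wider control range, and the groups differed by 0.00 ± 0.09. SPINK2, the inhibitor that keeps acrosin in check, was at 6.77, 6.63 and 6.40 against 6.75, 6.66 and 6.63, and was above background in 2 of 3 dexamethasone stallions. Only dexamethasone stallion 3, the one not above background, stood below the rest, and the difference was -0.08 ± 0.11. SPACA7, a secreted acrosomal protein, was at 8.11, 7.73 and 7.89 against 7.91, 8.00 and 7.85, with the highest and the lowest value both in the treated group. SPACA3, a lysozyme-like protein of the acrosome, was at 7.49, 7.00 and 7.05 against 6.97, 7.20 and 7.08. Its difference of 0.09 ± 0.13 rested on dexamethasone stallion 1 and was -0.06 without it. PRSS55, a serine protease of the testis, was at 6.72, 6.36 and 6.88 against 6.81, 6.73 and 6.95. It was not above background in dexamethasone stallion 2, and its difference of -0.18 ± 0.13 was -0.04 without that animal.

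ZPBP and ZPBP2 are paralogous zona pellucida-binding proteins of the acrosomal matrix. ZPBP was at 6.38, 6.31 and 6.27 in the dexamethasone stallions and 6.54, 6.48 and 6.57 in the controls. Every treated stallion lay below every control, and the probe was above background in 1 of 3 treated stallions and 3 of 3 controls. Its controls by themselves were enough for the detection rule and its treated stallions by themselves were not, which favours a lower treated group. The treated mean rests mostly on spots near background, so that its difference is one of normalised intensities and no measure of the transcript. The means were 6.32 ± 0.05 and 6.53 ± 0.05 (SD, n = 3 each), a difference of -0.21 ± 0.08 (SE) with a 95% interval from -0.39 to -0.03. Its limma p was 0.0264 before and 0.999 after adjustment, and the exact two-sided permutation p over stallions was 0.1, the smallest that 3 against 3 can give. The difference was -0.17 within the run of 4 arrays with consecutive slide numbers and -0.30 within the run of 2. With background subtraction it was -0.56, and leaving out any of dexamethasone stallions 2 and 3 or control stallions 1 and 3 took the unadjusted p above 0.05. ZPBP2 was at 6.77, 6.81 and 6.86 against 6.82, 6.84 and 6.84, above background on 6 arrays, and differed by -0.02 ± 0.08, with an interval from -0.20 to 0.15. It had the smallest spread within groups of all tested members, and its groups overlapped.

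LYZL6, a lysozyme-like protein of the sperm head, was the only member with a pair of tested probes. Probe GE518514 was at 6.64, 6.53 and 6.73 in the dexamethasone stallions and 6.48, 6.45 and 6.26 in the controls. The groups did not overlap, and the lowest control, stallion 3, was not above background. The treated stallions by themselves were thus enough for the detection rule and the controls by themselves were not, which favours a higher treated group. The means were 6.63 ± 0.10 and 6.40 ± 0.12 (SD, n = 3 each), the difference was 0.24 ± 0.10 (SE) with an interval from 0.03 to 0.45, and the limma p was 0.0321 before and 0.999 after adjustment. Its exact two-sided permutation p was again 0.1. Within the runs of slides it was 0.12 and 0.47. With background subtraction it was 0.58, and leaving out dexamethasone stallion 1 or 3 or control stallion 3 took the unadjusted p above 0.05. Probe GE54752, above background on 6 arrays, was at 7.48, 7.51 and 7.43 against 7.28, 7.50 and 7.61, with treated values inside the control range and a difference of 0.01 ± 0.10. The difference between the probes' responses was not tested. Groups did not overlap for 2 of the 25 member probes (8%), against 8.36% of all tested probes with 6 values.

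**Figure D3:**
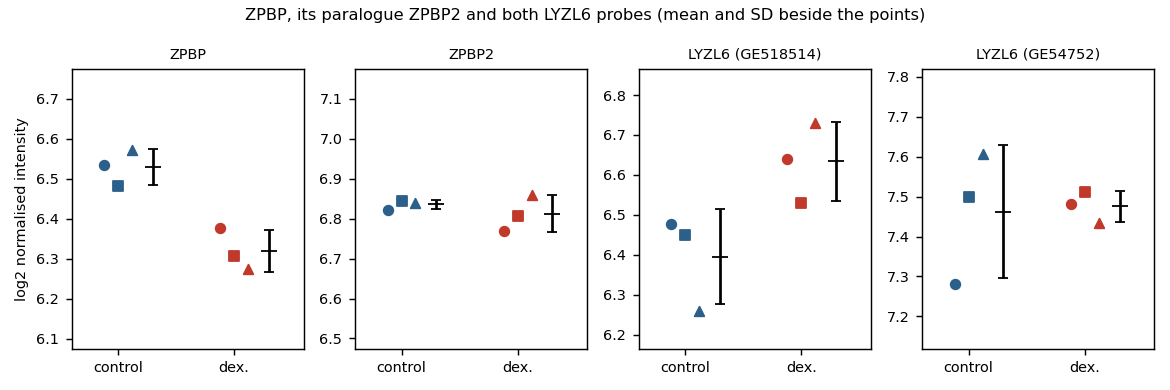
Log2 normalised intensity by stallion of ZPBP, ZPBP2 and both LYZL6 probes, with circle, square and triangle for stallions 1, 2 and 3 of each group and the mean and SD of 3 stallions beside the points; every panel spans the same height. The groups separate for ZPBP and for LYZL6 probe GE518514 and overlap for ZPBP2 and for LYZL6 probe GE54752.

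Of 9 membrane proteins that bind or fuse the gametes 5 were tested, and none passed the test. The differences of 4 lay higher and of 1 lower, from -0.01 to 0.15, with a median of 0.04. IZUMO1, the sperm protein that binds the egg receptor JUNO, was at 7.67, 7.43 and 7.63 in the dexamethasone stallions and 7.47, 7.64 and 7.60 in the controls. The control values fell inside the range of the treated ones, and the difference was 0.01 ± 0.10 (SE), with an interval from -0.21 to 0.22. SPACA1, a protein of the inner acrosomal membrane, was at 7.14, 7.18 and 7.03 against 7.24, 7.12 and 7.01, a difference of -0.01 ± 0.09. EQTN, equatorin, of the equatorial part of the acrosome, was at 8.00, 8.16 and 8.19 against 8.09, 7.99 and 8.12, a difference of 0.05 ± 0.09. For both genes the groups overlapped. ZAN, zonadhesin, which holds sperm to the zona pellucida in a species-specific way, was at 8.97, 9.15 and 8.96 against 9.02, 8.87 and 9.09, a difference of 0.04 ± 0.10. HYAL3, the other hyaluronidase of the list, was at 6.70, 6.91 and 6.90 against 6.68, 6.75 and 6.64. Dexamethasone stallions 2 and 3 lay above all controls and dexamethasone stallion 1 between control stallions 1 and 2, with a difference of 0.15 ± 0.09 and an unadjusted limma p of 0.134. Without dexamethasone stallion 1 the difference was 0.22 (unadjusted limma p of 0.0410), without dexamethasone stallion 2 it was 0.11, and with background subtraction 0.29. The unadjusted limma p of HYAL3 was under 0.05 in 1 of 19 alternatives and reached 0.298 at most.

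The ADAM proteins are membrane-anchored metalloprotease relatives, several of which sit on the sperm surface. All 3 tested members of 5 lay lower in the dexamethasone group, by -0.05 to -0.15, and none passed the test. Over all 24590 tested probes 12911 lay lower, and 3 probes are too few to set apart from that share. ADAM2, the beta subunit of fertilin, was at 6.89, 6.97 and 6.87 against 6.99, 6.97 and 6.97, a difference of -0.06 ± 0.08 (SE). Its controls were nearly equal, and dexamethasone stallion 2 lay within their range. ADAM29 was at 6.44, 6.30 and 6.50 against 6.66, 6.43 and 6.60, was not above background in dexamethasone stallion 2, and differed by -0.15 ± 0.10, or by -0.37 with background subtraction. ADAM30 was at 8.32, 8.44 and 8.51 against 8.41, 8.45 and 8.58, a difference of -0.05 ± 0.09, with overlapping groups. Among the cysteine-rich secretory proteins only CRISP3 was read, a protein known as abundant in stallion seminal plasma. It was at 7.28, 7.13 and 7.21 against 7.16, 6.93 and 7.18, a difference of 0.11 ± 0.10, or 0.03 without control stallion 2, the lowest of the 6.

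Acrosome formation was read by 2 of its 4 members. PICK1, a scaffold protein that guides vesicles from the Golgi apparatus to the acrosome, was at 10.95, 11.27 and 10.78 in the dexamethasone stallions and 10.89, 10.75 and 10.89 in the controls. Dexamethasone stallion 2 stood above the other five stallions, and the difference of 0.15 ± 0.12 (SE) was 0.02 without it. SPATA16, a Golgi protein whose loss is known to give round-headed sperm, was at 10.15, 10.71 and 10.16 against 10.22, 10.33 and 10.42. Here too dexamethasone stallion 2 was the highest, while the other treated stallions were below all controls. The difference was 0.02 ± 0.15 and -0.17 without dexamethasone stallion 2. Its 95% interval ran from -0.31 to 0.34.

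The actin-related and capping proteins shape the layer between acrosome and nucleus. CAPZA3, the alpha subunit of actin capping protein made in male germ cells, was at 12.48, 12.68 and 12.75 in the dexamethasone stallions and 12.28, 12.52 and 12.61 in the controls. The treated group lay higher but overlapped the controls, with means of 12.64 ± 0.14 and 12.47 ± 0.17 (SD, n = 3 each). The difference was 0.17 ± 0.11 (SE), with an interval from -0.08 to 0.42 and an unadjusted limma p of 0.167, and was 0.07 without control stallion 1. CAPZB, the beta subunit, which most cell types make, was at 9.43, 8.99 and 9.50 against 9.45, 9.67 and 8.93. It varied more than any other tested member, over 0.74 on the log2 scale, with 1 low stallion in each group. Its difference was -0.04 ± 0.19, -0.35 within the run of 4 arrays and 0.57 within the run of 2. ACTL7B, an actin-like protein of spermatids, was at 8.17, 8.48 and 8.38 against 8.24, 8.50 and 8.19, a difference of 0.03 ± 0.11, again with overlapping groups.

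**Figure D4:**
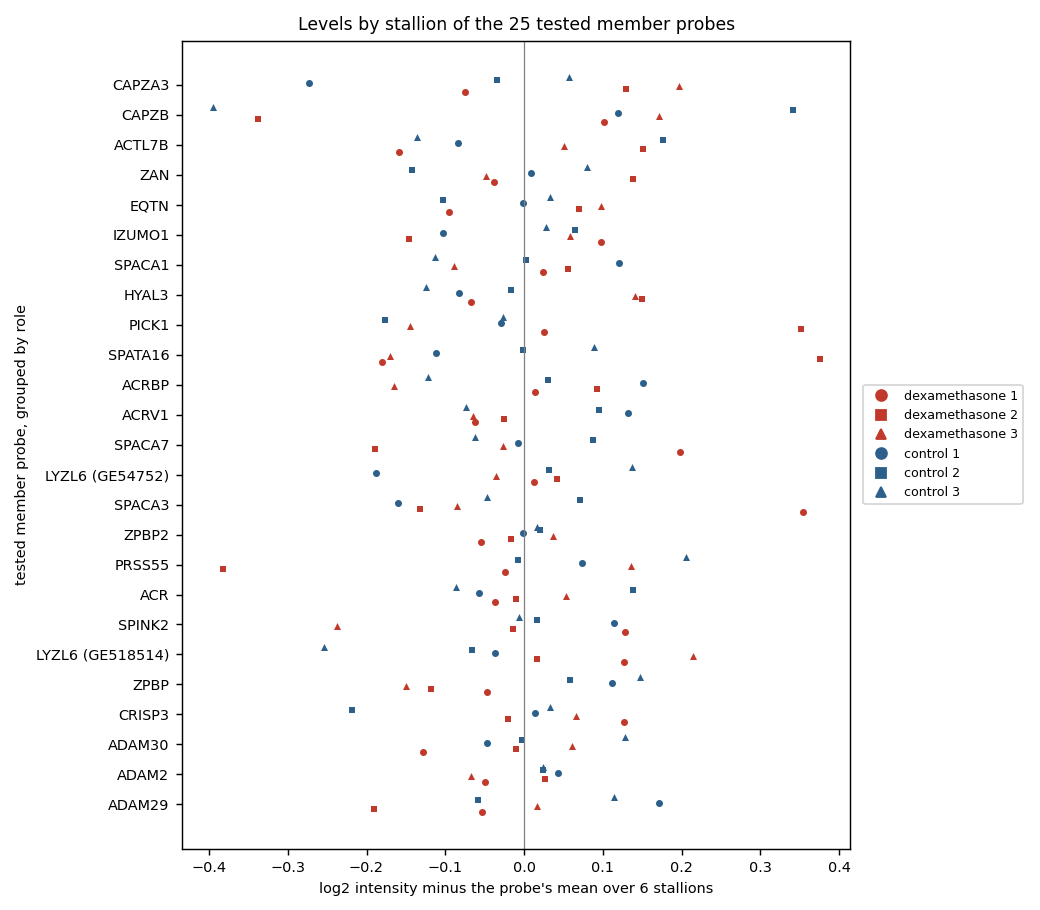
Log2 intensity of the 25 tested member probes in each stallion, minus the mean of the probe over the 6 stallions, with red for dexamethasone and blue for control. The points of every stallion lie on both sides of 0, above it for 11 to 14 of the 25 probes, and the widest rows are CAPZB, PRSS55, SPATA16 and PICK1, the last 2 with dexamethasone stallion 2 to the right.

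Each stallion lay above the mean of a probe for 11 to 14 of the 25 probes. Each was the highest for 3 to 5 of the 25 probes and the lowest for 3 to 6, and the median deviation of a stallion from the mean of each probe lay between -0.04 and 0.02. The median member difference was -0.02 within the run of 4 arrays (2 stallions per group) and 0.01 within the run of 2 (1 per group), beside -0.01 and 0.00 over all tested probes, and 12 of 25 differences had the same sign in both runs. The run of slide numbers is read from the names of the files and is not said to be a processing batch.

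The background correction set the size of several differences. Detection and direction are tied for the 5 probes above background on 4 or 5 arrays, since the 4 lower ones missed the limit only in dexamethasone stallions and the higher one only in a control, so no contrast is drawn between them and the other 20. With background subtraction in place of normexp, PRSS55 was at -0.40, ADAM29 at -0.37 and SPINK2 at -0.20. Probes above background on all 6 arrays moved too, HYAL3 from 0.15 to 0.29 and CRISP3 from 0.11 to 0.19. CAPZA3, PICK1, ACRV1 and ACRBP, whose lowest signal strength on any array was 13.3, were at 0.17, 0.16, -0.11 and -0.04.

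**Figure D5:**
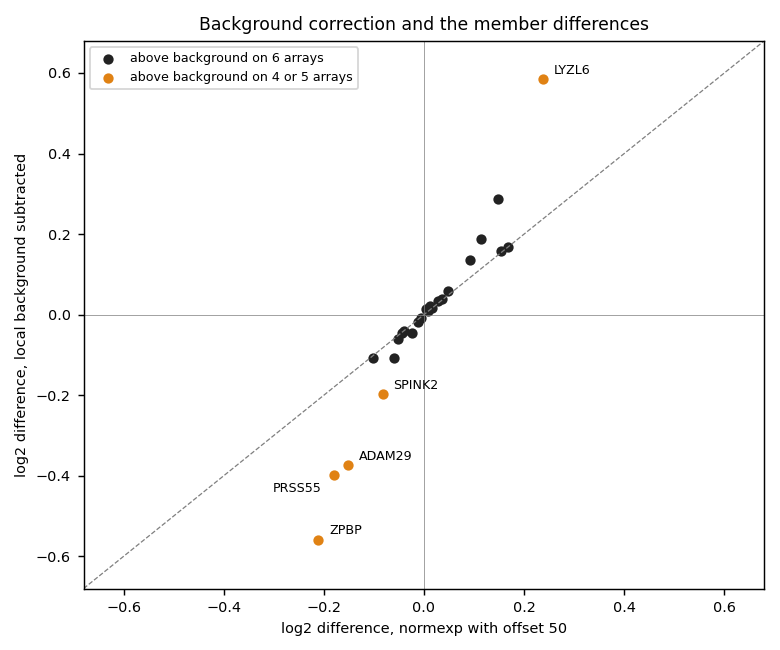
Log2 difference of each of the 25 tested member probes with normexp and an offset of 50 (horizontal) and with local background subtracted (vertical), where the dashed line marks equal values. The 5 probes in orange, above background on 4 or 5 arrays, lie farther from 0 with subtraction, as ZPBP does at -0.56 against -0.21, and so does HYAL3 among the others at 0.29 against 0.15.

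Related genes outside the list were read from 4 lists, and no probe in them passed the adjusted test. Among other gamete binding and fusion genes 13 of 20 probes were tested, 5 higher and 8 lower, with a median of -0.03. IZUMO2, a relative of IZUMO1, differed by 0.22 ± 0.11 (SE), CD46 by -0.14 ± 0.09 and DCST2 by -0.15 ± 0.13, and TMEM95, a fusion protein, was above background on 0 arrays. Of the testis chaperones and processing enzymes 4 of 8 probes were tested, with CALR3 at 0.12 ± 0.10, TMEM190 at -0.10 ± 0.10 and PDILT at 0.08 ± 0.11, and 2 higher and 2 lower. Other acrosome formation genes gave 19 tested of 38 probes, 7 higher and 12 lower, with a median of -0.05. RIMS1, a vesicle docking protein, was at 8.83, 9.32 and 9.14 in the dexamethasone stallions and 9.27, 9.75 and 9.39 in the controls, a difference of -0.37 ± 0.15 with overlapping groups and the only probe of these 4 lists with an unadjusted limma p under 0.05 (0.0326). GBA2 and HOOK1 differed by 0.20 ± 0.10 and -0.22 ± 0.12. Of the sperm head cytoskeleton genes 8 of 18 probes were tested, 6 higher and 2 lower, with SPATA4 at -0.19 ± 0.08, ACTRT3 at -0.11 ± 0.09 and SPEM1 at 0.21 ± 0.18.

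Markers of the germ cells that carry these genes lay in both directions. Of 26 spermatid probes 13 were tested, 7 higher and 6 lower, with a median difference of 0.01. Summed levels here are the log2 of added intensities over the tested probes of a list that had a value on all 6 arrays. The brightest probes weigh most in such a sum. For spermatids it ran from 13.31 to 13.68 in the dexamethasone stallions and from 13.33 to 13.57 in the controls. Spermatocyte markers lay higher for 4 and lower for 9 of 13 tested probes of 20, with a median of -0.04 and summed levels of 13.73 to 13.78 against 13.64 to 13.90. Epididymis and duct markers, a check on CRISP genes, lay higher for 8 and lower for 3 of 11 tested probes of 20. Their median was 0.01, with summed levels of 13.06 to 13.27 against 13.12 to 13.19. ADAM28, LCN10, RNASE9, RNASE10, DEFB118, DEFB129, WFDC2 and EDDM3A were above background on 6 arrays. Of the 20 probes 7 were above background on 0 arrays, among them LCN12, WFDC8, KRT8, KRT19, EPCAM and NPC2. Peritubular myoid markers lay lower for 5 of 5 tested probes, with a median of -0.20 and summed levels of 10.48 to 10.52 against 10.51 to 10.83. Endothelial markers lay lower for 4 of 4 tested probes, with a median of -0.10 and summed levels of 10.74 to 10.89 against 10.86 to 10.96. Leydig cell markers lay higher for 5 and lower for 6 of 11 tested probes, with a median of -0.08. Their summed levels were 12.62 to 12.78 against 12.83 to 13.05, which do not overlap. Both INSL3 probes are part of these sums, and sums without them were not taken, so the separation cannot be ascribed to the other Leydig markers. Both probes of INSL3, a hormone of Leydig cells, lay lower, by -1.21 ± 0.23 and -0.52 ± 0.22 (SE), with an unadjusted limma p of 0.000389 and 0.0410 and an adjusted p of 0.999 each. The medians were 0.03 for spermatogonia, -0.03 for Sertoli cells, 0.04 for macrophages and lymphocytes and 0.13 for the 1 tested erythrocyte probe. INSL3 was not alone in reaching an unadjusted limma p under 0.05. Higher were 1 spermatid, 1 Sertoli and 1 duct probe, and lower 1 spermatocyte and 1 myoid probe, beside 3.29% of all tested probes. The Sertoli probe, of CLDN11, differed by 0.48 ± 0.13 (SE), and the other CLDN11 probe by 0.04 ± 0.12. No marker probe of these lists passed the adjusted test, and the part of the markers in the member differences was not tested.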

How the data were processed

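Per the file headers, the authors deposited for each spot the spot mean, local background, quality flag and a signal strength score, and a scaled intensity that equals, from the values, background-subtracted intensity over 1 constant per array. Scanner software is not given in the sources used here. Spots flagged M held no value, and those flagged C, I or P were set to missing. Repeated probe names (95, blanks included) were left out as controls. Background was removed from each spot mean by normexp with the local median (offset 50), and log2 values, quantile normalised, were fitted with limma 3.58.1 in R 4.3.3 without covariates, two-sided, with 95% intervals; the script was tested on simulated data. Figures used matplotlib 3.10.9 in Python 3.11.15. Probe symbols came from the platform annotation. Groups came from the labels, and replicates were numbered 1 to 3 in accession order, which pairs no stallions. Nothing says how the stallions relate, so p-values speak for these 6 animals only. Limma's p-values and SE combine the spread of a probe between these animals with a variance shared over all tested probes. Members, lists and alternatives were chosen with earlier results of these data known. All members are named, and up to 3 genes per related list with the smallest p.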

Additional observations from a re-analysis of the deposited data

How the results depend on the processing

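No member passed an adjusted p in any of the 19 alternatives, where the smallest over the 25 probes was 0.728. Over the whole array 1 probe passed the adjusted test as reported. That count was 0 under background subtraction, under trend and robust eBayes and where a probe had to be above background on all 6 arrays. It was 0 to 1 when arrays were left out singly, with 0 in the absence of control stallion 1 or of control stallion 3. The 2 member probes past an unadjusted p became 1 without background correction, 1 under median scaling and 1 under trend and robust eBayes. The count was 4 with no filter, where 39 member probes of 37 genes were tested. It was 0 under the filter of all 6 arrays and 0 to 2 on leaving out single arrays. The members' median difference was -0.076 under median scaling and -0.054 with the deposited scaled intensity, beside -0.075 and -0.065 over all tested probes, and ran from -0.021 to 0.021 on leaving out single arrays. Under these 2 scalings 6 of 25 member probes lay higher, in place of 13. Single differences changed sign in 45 of 470 values, none of a probe whose difference exceeded 0.091. The sign was kept throughout by 12 of the 25 probes, ZPBP and LYZL6 probe GE518514 among them in 18 of 18. The alternatives reuse the same spots, and the filter of all 6 arrays left out both of these probes. A kept sign is therefore no support for either difference. With a signal strength of at least 1.5 as the limit, 16 member probes in place of 25 were above it on at least 3 arrays, and signal over background limits what the dim ones can show. No paired analysis was possible because the labels give each stallion a number of its own. Apart from fewer arrays or probes entering a fit, the cause of these changes was not tested.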
